A study of Caenorhabditis elegans with 9 samples.

Results

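The genes hrg-9 and hrg-10 of the nematode Caenorhabditis elegans are described here across intestines of worms raised with little, moderate or much heme. They were chosen by name, as R186.1 (hrg-9) and Y80D3A.9 (hrg-10), with earlier results of these data known. They are 2 of 21776 genes in the deposited table. The worms were of the strain N2, a wild type with no transgene named in the labels. They were grown from synchronized first-stage larvae for 4 days in liquid mCeHR2 medium at 20 °C with 2, 20 or 400 µM heme, and dissected as adults. Each SMART-seq library pools the intestines of 3 worms, and each dose has 3 libraries. The labels do not state whether libraries of 1 dose stem from separate cultures, and p-values therefore reflect the spread between these libraries, which may be technical.

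C. elegans does not make heme and takes it up from its food through the intestine. Importers of the HRG-1 family bring heme into intestinal cells, the ABC transporter MRP-5 passes it on, and surplus heme is kept in lysosome-related organelles. HRG-9 and HRG-10 are the worm relatives of human TANGO2, a cytoplasmic protein lost in TANGO2 deficiency disorder. HRG-9 is known for moving heme out of compartments where it is stored or made, so that it can reach other hemoproteins.

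Both genes lie on the reverse strand of chromosome V in WBcel235, the build that the submitters' processing notes name. The gene hrg-9 occupies chrV:12961474-12963343 and has 5 exons, a transcript of 1106 bases and a protein of 276 amino acids. The gene hrg-10 occupies chrV:18953118-18957317 and has 7 exons, a transcript of 879 bases and a protein of 279 amino acids. The proteins are thus almost equal in length, while hrg-10 spans 4200 bases of the genome and hrg-9 spans 1870. They are separated by 5989774 bases. The 3′ untranslated region measures 252 bases in hrg-9 and 28 bases in hrg-10.

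**Figure D1:**
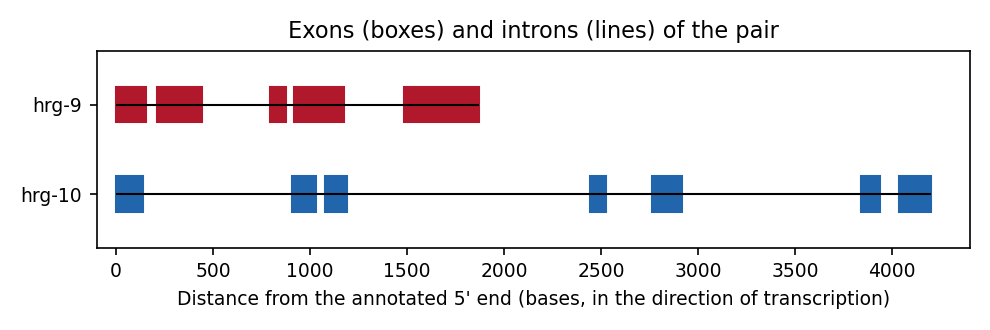
Exons (boxes) and introns (lines) of hrg-9 and hrg-10, drawn to scale as distance in bases from each gene's annotated 5′ end. The 5 exons of hrg-9 fall within 1870 bases and the 7 exons of hrg-10 are spread over 4200 bases.

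The libraries hold 44385011 to 72960600 counts, of which ribosomal RNA takes between 2.31 and 42.1%. At 2 µM heme, replicates 2 and 3 resembled each other closely: chi-square per degree of freedom between their counts was 10.9, where it lay between 331.7 and 4292 in other pairs of a dose. They differed by more than counting noise and were counted as 2 libraries. Amplified reads can exceed that noise also within 1 sample, so whether both come from the same material cannot be told, and values with both summed are given beside the results. All 12 intestine markers had counts at every dose, and together they took 1.97 to 19.5% of the counts of a library. Genes of other tissues were present too. The 14 sperm markers took at most 0.755% of the counts, the 14 germline and oocyte markers 0.401%, the 6 hypodermis markers 0.735%, the 8 body wall muscle markers 0.104%, the 10 pharynx markers 0.0579% and the 7 neuron markers 0.00873%. In such bulk samples, fewer cells of a type and less RNA per cell cannot be told apart.

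The gene hrg-9 was high at 2 µM heme and low at the other doses. The deposited FPKM, the authors' read level scaled to transcript length and library depth, was 64.2, 16.03 and 17.9 in replicates 1 to 3 of 2 µM heme. At 20 µM it was 1.63, 0.40 and 0.050, and at 400 µM it was 4.66, 1.12 and 1.73. Every library of 2 µM heme stood above all 6 others, and the libraries of 20 and 400 µM overlapped.

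Behind these levels stood 4146, 885 and 870 counts with 2 µM heme. With 20 µM heme hrg-9 had 95, 19 and 2 counts, and with 400 µM heme it had 261, 57 and 100. The 2 counts of 20 µM replicate 3 lie under a floor of 3 counts, which is 0.0676 CPM (counts scaled to the library total) there. Their exact 95% Poisson interval, which covers counting error only, runs from 0.242 to 7.22 counts. The interval for 2 µM replicate 3 runs from 813 to 930 counts, so counting error is small there.

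The gene hrg-10 was low at every dose, and its doses overlapped throughout. Its FPKM was 1.49, 2.21 and 4.24 in replicates 1 to 3 at 2 µM heme, 2.54, 0.95 and 1.84 at 20 µM, and 2.78, 2.13 and 3.55 at 400 µM. In the same order the counts behind these values were 98, 124 and 209, then 149, 46 and 74, then 157, 108 and 206. In CPM after TMM scaling, used from here on, hrg-10 ranged from 0.741 to 3.80 over the 9 libraries, while hrg-9 ranged from 0.0627 to 51.1.

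**Figure D2:**
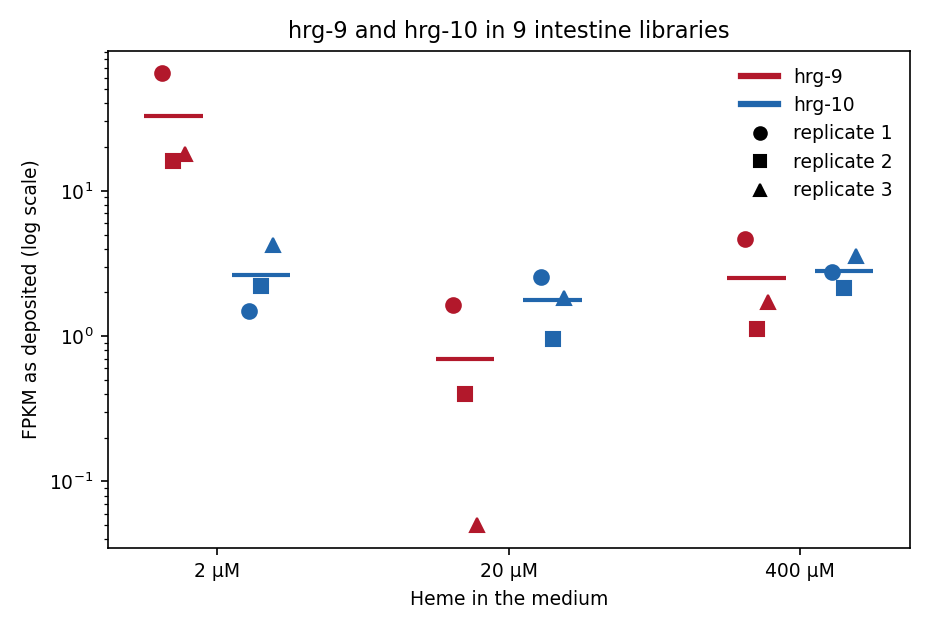
FPKM of hrg-9 (red) and hrg-10 (blue) on a log axis in each of 9 libraries by heme dose, with bars at the mean of 3. The 2 µM points of hrg-9, from 16.03 to 64.2, sit above its other points, while those of hrg-10 stay between 0.95 and 4.24.

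Placed among all genes of the library by FPKM, hrg-9 stood above 94.1, 88.1 and 89.2% of genes at 2 µM heme. At 20 µM it stood above 69.3, 47.3 and 50.3%, and at 400 µM above 69.6, 57.6 and 59.1%. These shares include genes with no count. In 20 µM replicate 3 only 10959 of 21776 genes had a count, and hrg-9, with 2 counts, ranked 10769 by FPKM. The 50.3% there thus lies little above the genes at 0. For hrg-10 the position moved between 55.7 and 74.4% over all 9 libraries. The gene hrg-9 thus stood higher among genes in every library of the lowest dose than in any other library.

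Between the genes, FPKM allows a comparison of level per length, at the lengths the deposited values imply. These were 889 bases for hrg-9 and 901 bases for hrg-10, where the annotated transcripts have 1106 and 879 bases. With the annotated lengths, the ratios and shares of hrg-9 given here would be smaller. At 2 µM heme hrg-9 exceeded hrg-10 in every library, with a ratio of 43.1, 7.25 and 4.21 in replicates 1 to 3. At 20 µM hrg-10 was the more abundant in every library, and the ratio was 0.642, 0.421 and 0.0272. At 400 µM the ratio was 1.68, 0.526 and 0.487, so that hrg-9 led in replicate 1 and hrg-10 in replicates 2 and 3. Of the summed FPKM of the pair, hrg-9 made up 88.8 ± 8.49% with 2 µM heme (mean ± SD, n = 3 libraries a dose). The share was 23.8 ± 18.9% with 20 µM heme and 43.3 ± 16.8% with 400 µM heme.

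The ratio of the pair within a library is free of scaling between libraries, and its test asks whether hrg-9 relative to hrg-10 differed across doses. The ratio is not free of differences in tissue content between libraries, and their part in it was not tested. The mean log2 ratio of hrg-9 to hrg-10 counts (with 0.5 added to each) was 3.43 at 2 µM, −2.27 at 20 µM and −0.41 at 400 µM. It differed across the 3 doses (exact permutation test of the F statistic over all assignments of libraries to doses, p = 0.0143, adjusted p = 0.0214 over 3 tests). The level of hrg-9 also differed across doses (exact permutation p = 0.0107, adjusted p = 0.0214), and that of hrg-10 did not pass (exact permutation p = 0.971). The smallest p these tests can give is 0.00357. Without 2 µM replicate 1 the adjusted p was 0.0536 for hrg-9 and 0.0589 for the ratio, and without 20 µM replicate 3 it was 0.0536 for both. Between any 2 doses, 3 against 3 libraries cannot give a two-sided exact p below 0.10. The ratio reached that exact p for 2 against 20 µM (difference 5.69 on the log2 scale) and for 2 against 400 µM (3.83), and 400 against 20 µM gave an exact p = 0.40 (1.86).

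From 20 to 2 µM heme, hrg-9 was 26.2 ± 21.6 against 0.930 ± 1.30 CPM (n = 3 each), 28.1-fold apart, with no overlap of libraries. The log2 fold change was 4.81 (SE 1.28, 95% interval 1.91 to 7.71). The edgeR test, adjusted over 13434 genes, called neither member (0 of 2), and hrg-9 had an unadjusted p = 0.00458 and an adjusted p = 0.170. The background was 0.0744% of genes called, 13.4% with an unadjusted p under 0.05, and 17.1% with no overlap between libraries (12.7% higher at 2 µM). DESeq2 called hrg-9 (adjusted p = 0.00108, 7.49% of 12518 genes with an adjusted p called) and limma-voom did not (adjusted p = 0.179, 1.88% called). Without 2 µM replicate 1 the log2 fold change was 3.91 (edgeR adjusted p = 0.277), and with replicates 2 and 3 of 2 µM summed it was 5.13 (edgeR adjusted p = 0.345). Without 20 µM replicate 1 it was 7.06 and edgeR called hrg-9 (adjusted p = 0.0421). Over all genes the median then moved to 0.40, from 0.12 with every library included. Markers of other tissues moved between these doses too. The 14 sperm markers summed to 605 to 648 CPM at 2 µM and 37.1 to 164 CPM at 20 µM, and the 10 pharynx markers to 1.38 to 6.82 and 18.9 to 673 CPM, with 6 of the latter at 0 at 2 µM. The 6 hypodermis markers summed to 173 to 6603 and 75.8 to 1036 CPM. The lowest hrg-9 levels were in replicates 2 and 3 of 20 µM, whose ribosomal RNA shares were 35.5 and 42.1%. The part of these in the level of hrg-9 was not tested.

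From 400 to 2 µM heme, hrg-9 was 26.2 ± 21.6 against 1.88 ± 1.25 CPM (n = 3 each), 13.9-fold apart, again with no overlap. The log2 fold change was 3.79 (SE 1.21, 95% interval 1.04 to 6.55). The edgeR test called 0 of the 2 genes, with an unadjusted p = 0.0124 and an adjusted p = 0.359 for hrg-9, where 0.104% of genes were called and 10.6% had an unadjusted p under 0.05. Libraries did not overlap in 28.4% of genes (14.4% higher at 2 µM). DESeq2 and limma-voom called hrg-9 (adjusted p = 0.0312 and 0.00191), with 4.76 and 27.3% of the genes they tested called. Without 2 µM replicate 1 the log2 fold change was 2.82 (edgeR adjusted p = 0.421), and with replicates 2 and 3 of 2 µM summed it was 4.11 (edgeR adjusted p = 0.646). The 14 germline and oocyte markers summed to 128 to 295 CPM at 2 µM and 1209 to 4129 CPM at 400 µM, and the sperm markers to 717 to 6054 CPM at 400 µM. Their part was not tested.

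Between 400 and 20 µM heme, the libraries of hrg-9 overlapped. The log2 fold change was 1.02 (SE 1.11, 95% interval −1.50 to 3.54, edgeR adjusted p = 0.671), where 0.551% of genes were called, 18.5% had an unadjusted p under 0.05 and 24.1% had no overlap of libraries (16.7% higher at 400 µM). DESeq2 (13.2% of genes called) and limma-voom (0% called) did not call hrg-9 either. With 20 µM replicate 1 left out it was 3.27 (edgeR adjusted p = 0.0876), without 20 µM replicate 3 it was 0.49 and without 400 µM replicate 1 it was 0.40. In the fit without pairing, the levels of hrg-9 at 20 and 400 µM did not differ beyond the spread between libraries. With the replicate number as a block the log2 fold change was 1.77 (SE 0.70, edgeR adjusted p = 0.264), and hrg-9 was not called there either.

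For hrg-10 the log2 fold changes were −0.07 for 2 against 20 µM (SE 0.73, 95% interval −1.73 to 1.59), −0.05 for 400 against 20 µM (−1.71 to 1.62) and −0.02 for 2 against 400 µM (−1.68 to 1.64). Mean CPM was 2.18 ± 1.20, 2.29 ± 1.53 and 2.21 ± 0.415 at 2, 20 and 400 µM (n = 3 each). The edgeR adjusted p was 0.976, 0.981 and 0.995, and each interval includes changes in either direction. Under some alternatives the sign was positive in each comparison, and hrg-10 was called in none of them.

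The 8 other genes of heme transport give the setting for the pair. Ordered by mean FPKM at 2 µM heme, hrg-9 came after 6 of them and hrg-10 after 7. The secreted heme chaperone hrg-3 had 6501 ± 1438 FPKM, and hrg-7, a secreted signal of intestinal heme status, had 6348 ± 1812 FPKM. The heme-binding protein hrg-2 had 1619 ± 1386, the importer hrg-1 had 807 ± 133, the exporter mrp-5 had 305 ± 111 and the importer hrg-4 had 281 ± 114 FPKM. Then came hrg-9 with 32.7 ± 27.3 FPKM, below the lowest library of each of these 6. The importer relatives hrg-6 (5.93 ± 1.59 FPKM) and hrg-5 (2.23 ± 2.14 FPKM) stood on either side of hrg-10 (2.65 ± 1.43 FPKM), and the libraries of both overlapped those of hrg-10. At 20 µM hrg-9 had the lowest mean of the 10 genes, at 0.693 ± 0.830 FPKM, and overlapped hrg-2, hrg-5, hrg-6 and hrg-10. At 400 µM hrg-10 (2.82 ± 0.711 FPKM) came just before hrg-9 (2.503 ± 1.89 FPKM), and their libraries overlapped.

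Of these 8 genes, 7 had a log2 fold change above 0 for 2 against 20 µM (median 3.19, against 0.12 for all genes). With adjustment over all genes edgeR called 0 of them, and 6 of 8 had an unadjusted p under 0.05 (13.4% of all genes). DESeq2 gave no p for hrg-1 and hrg-7 in any comparison and called 4 of the other 6 (7.49% of all genes), and limma-voom called 6 of 8 (1.88%). The value of hrg-9, 4.81, lay between those of hrg-2 (9.46) and hrg-3 (4.21). For 2 against 400 µM all 8 were above 0 (median 6.87, all genes 0.02), and 6 of 8 had an unadjusted edgeR p under 0.05 (10.6% of all genes). With adjustment edgeR called hrg-4 alone (log2 fold change 6.32, SE 0.82, adjusted p = 0.0451, 0.104% of all genes called). DESeq2 called 4 of the 6 to which it gave a p (4.76% of all genes), and limma-voom called 6 of 8 (27.3%). Both called hrg-4 (adjusted p = 6.2e-15 in DESeq2 and 3.8e-05 in limma-voom). The edgeR call of hrg-4 did not hold with replicates 2 and 3 of 2 µM summed (adjusted p = 0.154), with the replicate number as a block (0.0747), or without any 1 library of 2 or 400 µM or 20 µM replicate 2 (edgeR adjusted p from 0.0524 to 0.258). The value of hrg-9 there, 3.79, was below those of hrg-1 (7.42), hrg-2 (10.65), hrg-3 (8.75), hrg-7 (8.11), hrg-4 (6.32) and mrp-5 (4.2).

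**Figure D3:**
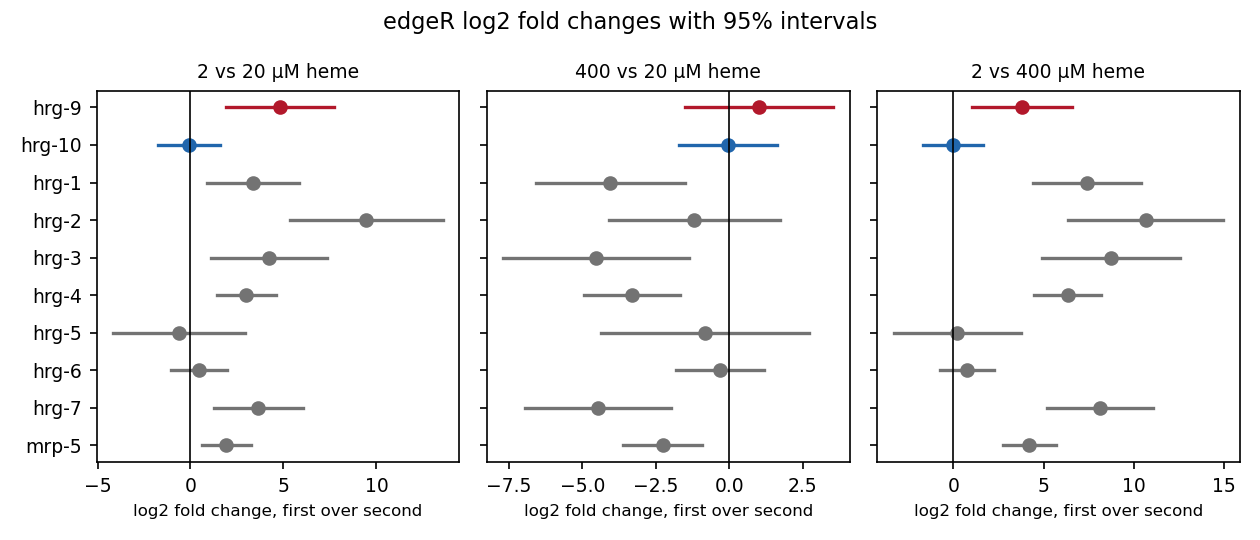
Points are edgeR log2 fold changes and lines their 95% intervals for hrg-9 (red), hrg-10 (blue) and 8 heme transport genes (grey) in 3 comparisons of heme dose. The interval of hrg-9 lies above 0 for 2 against 20 µM (1.91 to 7.71) and 2 against 400 µM (1.04 to 6.55) and spans 0 for 400 against 20 µM, and that of hrg-10 spans 0 in all 3.

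Between 20 and 400 µM, the fitted sign of hrg-9 differed from that of the heme transport genes. For 400 against 20 µM all 8 had a log2 fold change below 0 (median −2.79, all genes −0.03), with −4.53 for hrg-3, −4.47 for hrg-7, −4.05 for hrg-1, −3.31 for hrg-4 and −2.27 for mrp-5. For hrg-2 it was −1.19 (95% interval −4.10 to 1.72), for hrg-5 −0.83 (−4.38 to 2.72) and for hrg-6 −0.31 (−1.80 to 1.18). The value of hrg-9 was 1.02, with an interval that, like those of hrg-2, hrg-5 and hrg-6, spans 0. None of the 8 was called by edgeR, and 5 had an unadjusted p under 0.05 (18.5% of all genes). DESeq2 called 3 of the 6 to which it gave a p (13.2% of all genes), and limma-voom called 0 (0%).

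Counts of hrg-9 came to 0.479, 0.0954 and 0.111% of the summed counts of the 8 genes in replicates 1 to 3 at 2 µM. They came to 0.109, 0.101 and 0.00792% at 20 µM, and to 3.74, 0.885 and 1.09% at 400 µM. This share was chosen after the values were seen and is given with no test. The shares at 400 µM were above those of the other libraries, and the shares at 2 and 20 µM overlapped. The summed level of the 8 genes, by which the share is divided, was 10661, 13426 and 13258 CPM at 2 µM, 2229, 302 and 791 CPM at 20 µM, and 88.6, 116 and 120 CPM at 400 µM.

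Over the 9 libraries, the pattern of hrg-9 was most like that of tba-9, an alpha-tubulin (Pearson r = 0.989 on log2 of CPM + 0.5, among 10137 genes with a mean of at least 1 CPM). Next came ugt-2, a glucuronosyltransferase (0.980), F17C11.13 (0.978), Y47D9A.1 (0.977), F13D12.3 (0.971) and coq-1, an enzyme of ubiquinone synthesis (0.967). These are descriptions over 9 libraries that share dose, depth and dissection. The gene tba-9 had 15.3, 4.63 and 3.69 CPM at 2 µM, 1.17, 0.0483 and 0 CPM at 20 µM, and 0.991, 0.577 and 0.339 CPM at 400 µM. Like hrg-9, it was highest in replicate 1 at each dose. For coq-1 the values were 83.9, 44.6 and 40.3 CPM, then 12.5, 10.1 and 3.89 CPM, then 11.5, 8.03 and 9.15 CPM. Among the heme transport genes r with hrg-9 was highest for hrg-2 (0.906, the 77th of the genes ranked), and lowest for hrg-5 (0.326).

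Between hrg-10 and hrg-9 r was 0.02. The pattern of hrg-10 was most like F42H10.3 (r = 0.904), ctdh-1 (0.892, listed as nlp-73), Y19D10A.16 (0.890), the yolk protein genes vit-6 (0.876) and vit-3 (0.871), and T27A10.8 (0.862). In all 6 the lowest library was 20 µM replicate 2, which Y19D10A.16 shared with 2 µM replicate 1 at 0 counts. The gene vit-6 had 1724, 30553 and 32240 CPM at 2 µM, 71065, 269.8 and 22820 CPM at 20 µM, and 17411, 50336 and 32591 CPM at 400 µM. Which genes were most like hrg-10 varied with the libraries used: leaving out 1 of them kept between 1 and 5 of the 6. For hrg-9 it kept between 3 and 6.

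**Figure D4:**
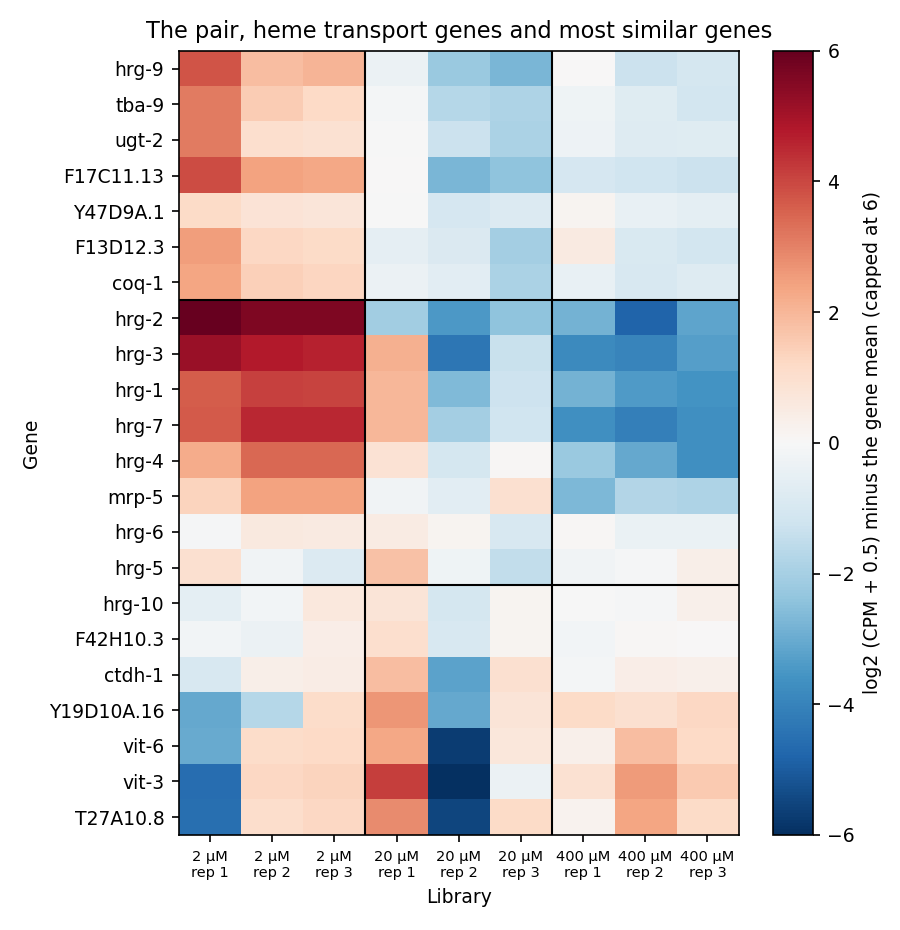
Colour shows log2 of CPM + 0.5 minus the gene's mean, capped at 6, for hrg-9 and the 6 genes most like it (top), 8 heme transport genes (middle), and hrg-10 and the 6 genes most like it (bottom) in 9 libraries. The top block is red at 2 µM heme, with replicate 1 the strongest for hrg-9, and the bottom block is bluest in 20 µM replicate 2 and 2 µM replicate 1.

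Within each dose, replicate 1 was the highest library for hrg-9, at 51.1 CPM against 12.8 and 14.7 at 2 µM, 2.42 against 0.306 and 0.0627 at 20 µM, and 3.32 against 1.03 and 1.31 at 400 µM. This held for 13.2% of tested genes, and among the heme transport genes for hrg-2. Replicate 1 also had the lowest ribosomal RNA share of each dose, with 3.58, 2.31 and 6.45% against 7.73 to 42.1% in the other libraries. It had the highest summed level of the 6 hypodermis markers, with 6603 CPM against 174 and 173 at 2 µM, 1036 against 75.8 and 259 at 20 µM, and 3522 against 1395 and 530 at 400 µM. The 8 body wall muscle markers were highest there too, with 931 against 46.4 and 54.97 CPM at 2 µM, 438 against 131 and 139 CPM at 20 µM, and 690 against 238 and 160 CPM at 400 µM. All 8 muscle markers had counts at every dose, and of the hypodermis markers dpy-7 was at 0 at 20 µM and rol-6 at 0 at 400 µM. Across all 9 libraries, r on the log2 scale between hrg-9 and the summed markers was 0.39 for hypodermis and 0.13 for body wall muscle. It was largest in size for pharynx (−0.52), and was 0.31 for sperm, −0.12 for germline and oocyte and −0.03 for neurons. The part of ribosomal RNA and of tissue content in the level of hrg-9 was not tested.

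For hrg-10, the libraries with the lowest levels were 20 µM replicate 2 (0.741 CPM) and 2 µM replicate 1 (1.21 CPM). These were also the libraries with the lowest summed level of the 12 intestine markers, 16652 and 34013 CPM, against 75005 to 268619 CPM in the other 7. Over the 9 libraries r was 0.85 between hrg-10 and the intestine markers, and 0.73 with the 2 vit genes taken out of the list. For hrg-9 it was −0.20 and −0.28. The part of the tissue content in the level of hrg-10 was not tested.

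**Figure D5:**
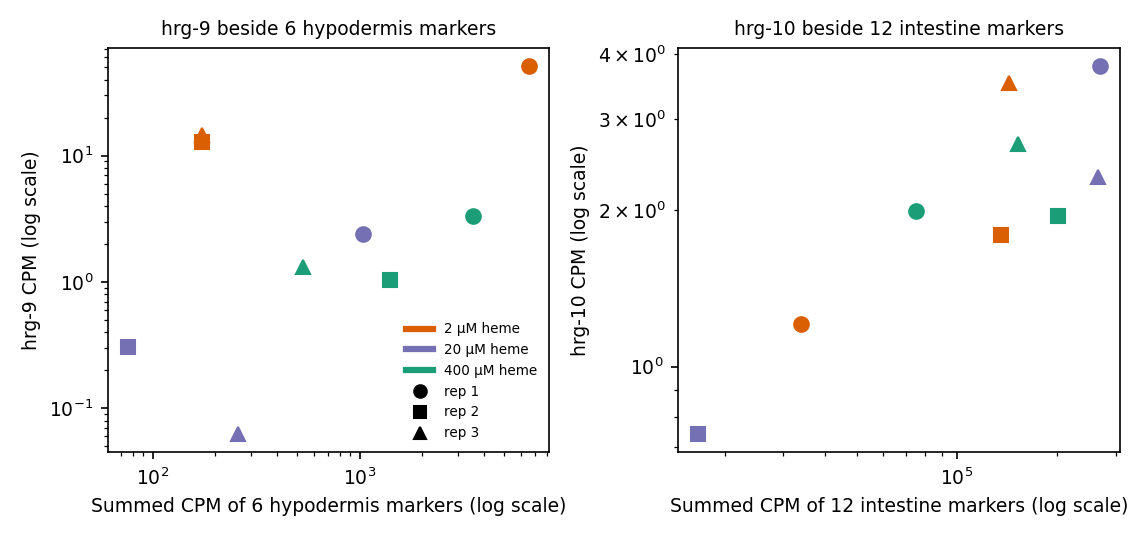
Each point is a library, coloured by heme dose and shaped by replicate, on log axes. At left, hrg-9 CPM against summed CPM of 6 hypodermis markers, where replicate 1 is the highest of its dose on both axes. At right, hrg-10 CPM against summed CPM of 12 intestine markers, where 20 µM replicate 2 and 2 µM replicate 1 are lowest on both axes.

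The closely similar replicates 2 and 3 of 2 µM heme had 12.8 and 14.7 CPM of hrg-9, a 1.15-fold difference. For hrg-10 they had 1.79 and 3.52 CPM, a 1.96-fold difference. The exact 95% Poisson intervals of the hrg-10 counts, 103 to 148 and 182 to 239, did not overlap. Of 10137 genes with a mean of at least 1 CPM, 64.3% differed less than hrg-9 between these libraries and 98.8% differed less than hrg-10. These genes were not matched to the pair by level, and most of the counting error falls on genes with few counts, such as hrg-10.

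Genes next to the pair on chromosome V had few counts. The noncoding gene R186.9, on the opposite strand, overlaps the 3′ end of hrg-9 by 11 bases. It had 1 count in each of replicates 2 and 3 of 2 µM and 0 elsewhere. Whether counting used the strand is not given in the sources used here, but few reads are at stake. The gene mpst-7, 338 bases away on the same strand, had 55, 20 and 0 counts with 2 µM heme, none with 20 µM, and 0, 21 and 20 with 400 µM. On the other side srd-35, of the opposite strand and 1032 bases away, had 33, 50 and 57 counts with 2 µM heme, 0, 15 and 1 with 20 µM, and 5, 0 and 1 with 400 µM. Its libraries did not overlap between 2 µM and either other dose, and edgeR did not call it (adjusted p = 0.512 against 20 µM and 0.445 against 400 µM). Of all genes, 12.7% were higher at 2 µM without overlap against 20 µM, and 14.4% against 400 µM. The gene ztf-20, 260 bases from hrg-10 on the same strand, had 0 counts at 2 µM and at most 16 elsewhere. On its other side Y80D3A.8, 6192 bases away, had at most 48 counts in a library.

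The organelles that store heme in the intestine were represented by 19 genes. For 2 against 20 µM none was called by edgeR, with 3 at an unadjusted p under 0.05, and the median log2 fold change was 0.26 (all genes 0.12). For 2 against 400 µM the counts were 0 and 2, with a median of 0.52 (all genes 0.02), and for 400 against 20 µM 0 and 3, with a median of −0.36 (all genes −0.03). DESeq2 called 1, 1 and 2 of the 18 to which it gave a p, in that order (7.49, 4.76 and 13.2% of all genes). From limma-voom the calls were 1, 4 and 0 of 19 (1.88, 27.3 and 0% of all genes), and unadjusted edgeR p under 0.05 was found in 13.4, 10.6 and 18.5% of all genes. The gene with the smallest p was glo-1, a Rab GTPase needed to form these organelles. It had 22.04, 28.9 and 29.6 CPM at 2 µM, 8.89, 10.5 and 5.98 CPM at 20 µM, and 4.62, 4.76 and 3.84 CPM at 400 µM, with no overlap between any 2 doses. Its edgeR adjusted p was 0.116 for 2 against 20 µM and 0.0505 for 2 against 400 µM. Next by p were apd-3, pgp-2 and glo-3. The gene apd-3 had 61.4 ± 30.5 CPM at 20 µM, against 22.9 ± 2.16 CPM at 2 µM and 17.5 ± 6.23 CPM at 400 µM. For pgp-2 the libraries had 12.3, 60.5 and 19.1 CPM at 20 µM, which overlapped the 7.02, 12.9 and 15.6 CPM at 400 µM and lay above the 9.25, 10.8 and 7.84 CPM at 2 µM.

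Of 20 genes for heme proteins and heme use, 19 were tested. None was called by edgeR for 2 against 20 µM (0.0744% of all genes called) or for 2 against 400 µM (0.104%). In the same order, 6 and 4 of the 19 had an unadjusted edgeR p under 0.05 (13.4 and 10.6% of all genes). The median log2 fold change was 0.86 and 0.53 (all genes 0.12 and 0.02). In these comparisons DESeq2 called 3 higher and 2 lower, then 1 higher and 3 lower, of the 18 to which it gave a p (7.49 and 4.76% of all genes). From limma-voom the calls were 1 higher, then 4 higher and 4 lower (1.88 and 27.3% of all genes). For 400 against 20 µM edgeR called cyc-2.2, a cytochrome c, which rose by 5.35 on the log2 scale (SE 0.89, adjusted p = 0.0414, 0.551% of all genes called). DESeq2 called 2 of the list there (13.2% of all genes), with cyc-2.2 among them (DESeq2 adjusted p = 6.7e-09), and limma-voom 0 (0%). The edgeR call of cyc-2.2 was lost with the summed libraries (adjusted p = 0.102), the replicate block (0.101) and only the 2 doses compared (0.181). It was also lost with any 1 library left out other than 20 µM replicate 1 or 400 µM replicate 2 (edgeR adjusted p from 0.0672 to 0.154). Its level was 78.6, 16.6 and 46.1 CPM at 400 µM and 0.306, 0.870 and 2.29 CPM at 20 µM. The median of the list was 0.25 there (all genes −0.03). The 14 sperm markers also stood high there, with 717 to 6054 CPM at 400 µM against 37.1 to 164 CPM at 20 µM, and their part in the level of cyc-2.2 was not tested. The reductase gene emb-8, which supplies electrons to cytochrome P450 enzymes, had 255 ± 50.6, 95.6 ± 9.17 and 63.9 ± 9.75 CPM at 2, 20 and 400 µM. Next by p were mlt-7 and skpo-1, both heme peroxidases. The gene mlt-7 had 7.81, 0.984 and 0.961 CPM at 2 µM, 0 counts at 20 µM, and 1.88, 0.379 and 0.379 CPM at 400 µM. Its libraries of 2 and 400 µM overlapped. Mean CPM of skpo-1 was 1.27 ± 0.572, 0.388 ± 0.514 and 15.6 ± 3.85 at 2, 20 and 400 µM.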

How the data were processed

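Per the file headers, the deposited data give a raw count and an FPKM value, computed by the authors, for each gene in each library. For hrg-9 and hrg-10 the transcript lengths implied by count, FPKM and library total were 889 and 901 bases, against 1106 and 879 bases in the annotation. Bowtie 0.12.2 and the build WBcel235 appear in the submitters' processing notes, and the counting method is not given in the sources used here. Of 21776 genes, 21714 were matched to RefSeq symbols. After filterByExpr and TMM scaling, the quasi-likelihood model of edgeR 4.0.16 was run in R 4.3.3 on the counts, with 1 coefficient per dose over all 9 libraries and Benjamini-Hochberg adjustment over 13434 genes, called at 0.05. CPM values use the TMM-scaled library sizes. Exact permutation tests over libraries were adjusted over 3 tests. The Poisson intervals of single counts and the floor of 3 counts cover counting error only. The intervals of log2 fold changes rest on the SE of the edgeR fit and not on counting error alone. Alternatives were DESeq2 1.42.0, limma-voom (limma 3.58.1) with sample weights, DESeq2 size factors, other filters, the replicate number as a block, fewer libraries and removal of 18 ribosomal RNA genes. Genes beyond the pair are the 8 heme transport genes, the 6 genes most like each member, their neighbours and up to 4 genes of smallest p from each of 2 lists. Members and lists were chosen with earlier results of these data known. DESeq2 gave no adjusted p to some genes, which are left out of its shares. Leaving out single libraries from the similarity ranking, the alternatives for cyc-2.2 and the share of hrg-9 in the heme list were added after the values were seen.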

Additional observations from a re-analysis of the deposited data

How the results depend on the processing

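The log2 fold change of hrg-9 kept its sign under every alternative run. Leaving out 1 library gave 3.91 to 7.06 for 2 against 20 µM, 0.40 to 3.27 for 400 against 20 µM and 2.82 to 4.37 for 2 against 400 µM. With all libraries kept, hrg-9 passed for 2 against 20 µM in DESeq2 (4.76), and for 2 against 400 µM in DESeq2 (3.65) and limma-voom (3.25). The sign of hrg-10 was reversed in limma-voom (0.65, 0.57 and 0.075 for 2 against 20, 400 against 20 and 2 against 400 µM), with the replicate block (0.011 and 0.081 for the first 2 of these), without a filter (0.027 for 400 against 20 µM) and with only the 2 doses compared (0.020 for 2 against 400 µM). Leaving out 1 library gave −0.64 to 0.53, −0.43 to 0.54 and −0.64 to 0.22 in the same order, with these reversed: 0.22, 0.054 and 0.53 without 2 µM replicate 1, 2 µM replicate 2 and 20 µM replicate 1 for 2 against 20 µM. For 400 against 20 µM they were 0.0044 without 2 µM replicate 1 or 3, 0.54 without 20 µM replicate 1, and 0.074 and 0.042 without 400 µM replicates 1 and 2. For 2 against 400 µM they were 0.22 and 0.098 without 2 µM replicates 1 and 2, and 0.14 without 400 µM replicate 3. Near-zero values of hrg-10 change sign easily, and it was called nowhere. Among the other heme genes hrg-5 (−1.69 to 1.67, −1.40 to 1.46 and −0.93 to 0.52 with 1 library left out) was reversed in limma-voom (0.13, 1.09 and −0.96), with the block (0.80 for 400 against 20 µM and −0.82 for 2 against 400 µM) and without 20 µM replicate 1 (1.67 for 2 against 20 µM and 1.46 for 400 against 20 µM), 2 µM replicate 1 (−0.93 for 2 against 400 µM) or 400 µM replicate 1 (−0.084), and hrg-6 without 20 µM replicate 1 (0.072 for 400 against 20 µM, range from −0.69).

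The adjusted exact permutation p ranged from 0.00536 to 0.0536 for hrg-9, from 0.536 to 1 for hrg-10 and from 0.00536 to 0.0589 for the ratio with 1 library left out, and kept its side of the threshold with another pseudocount or the summed libraries, and for hrg-9 and hrg-10 also with size factors. Genes changed, 10, 74 and 14 for 2 against 20, 400 against 20 and 2 against 400 µM, numbered 937, 1655 and 584 in DESeq2, 253, 0 and 3670 in limma-voom, 18, 147 and 29 without a filter, 0 in all 3 with replicates 2 and 3 of 2 µM summed, and 0, 0 and 284 with only the 2 doses compared. With at least 1 CPM in 3 libraries they were 18 for the first and about 1.2e+02 for the second. Leaving out 1 library gave 0 to 210, 0 to 953 and 0 to 54. With the replicate number as a block they were 2, 0 and 4, and hrg-9 had 5.42, 1.77 and 3.65 (edgeR adjusted p = 0.0990, 0.264 and 0.172). Deviations from the dose means correlated between doses with r of 0.160 to 0.206 among libraries numbered 1 and 0.192 to 0.251 among those numbered 3, but with −0.117 to 0.0243 among those numbered 2. Between libraries numbered 1 and those numbered 3, r was −0.275 to −0.176. As not every same-numbered pair was above 0.1, the main fit did not pair the samples by number. The library 2 µM replicate 2 correlated best with 20 µM replicate 3 (0.232). Because it closely resembled 2 µM replicate 3 (0.251 with the same library), that match cannot tell whether the numbers pair the samples. A batch shared by number thus remains possible. The cause of these differences was not tested.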
